A study of Mus musculus with 10 samples.

Results

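The genes described here encode the mRNA decay machinery through which tristetraprolin (TTP, gene *Zfp36*) acts, together with proteins that bind the same AU-rich elements (AREs). They comprised 44 genes listed by symbol and role, not by a threshold on measured values, out of 24454 genes in the count table. All 44 were present in the table and all 44 passed the filter on low counts, which left 15543 genes in the test. By role they were the TTP paralogs *Zfp36l1* and *Zfp36l2*, 10 CCR4-NOT genes, 4 BTG/TOB genes, *Pan2*, *Pan3*, *Parn* and *Pabpc1*, 8 decapping and 5′-3′ decay genes, 10 exosome genes, 5 ARE-binding proteins and the endonuclease gene *Zc3h12a*.

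RNA-Seq was performed on full-thickness, treated but tumor-free back skin of C57BL/6 mice, with 5 WT libraries (WT1 to WT5) and 5 libraries of *Zfp36*ΔARE knockin mice (KI1 to KI5). The knockin removes the instability element from the 3′ untranslated region (UTR) of *Zfp36* itself in every cell of the body, and whether the mice carried 1 or 2 such alleles is not given in the sources used here. Mice of both genotypes were 7 weeks old at the start and received 400 nmol of the mutagen 7,12-dimethylbenz[a]anthracene (DMBA) once on shaved skin, then, from 1 week later, 10 nmol of the tumor promoter 12-O-tetradecanoylphorbol-13-acetate (TPA) 2 times per week for 20 weeks, so that no library represents untreated skin. Controls were littermates, and the question was how higher TTP expression from its own locus changes the transcripts of skin under this treatment. The p-values below measure the spread between these libraries.

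TTP and its paralogs are CCCH zinc finger proteins that bind UAUUUAU-like sequences in mRNA 3′UTRs and recruit the CCR4-NOT deadenylase. Shortening of the poly(A) tail is followed by removal of the cap and digestion from the 5′ end by XRN1, or by digestion from the 3′ end by the RNA exosome. ELAVL1 (HuR), AUF1 (*Hnrnpd*), KSRP (*Khsrp*), TIA1 and TIAL1 bind overlapping sets of ARE-containing mRNAs, and HuR is mostly known for stabilizing them.

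Depth ran from 21638400 to 32583217 counts in WT and from 19595035 to 36419573 in KI libraries. All 7 basal keratinocyte markers and 7 of 8 suprabasal markers were in the table and none of them was at 0 throughout, which fits the skin label. Several libraries stood apart. The 12 hair shaft keratins, none of which was at 0 in all libraries, summed to between 87.5 and 3903 CPM (counts scaled to a common library total) in WT and between 6284 and 16473 in KI, with 4 of 12 passing the test and all 4 higher. The mean log2(CPM + 1) of these keratins, used below as a hair score, was 2.43 in WT3 and 5.20 in WT1 against 7.49 to 9.82 in the other 8 libraries. Macrophage markers summed to 1104 to 2169 CPM in WT and 532 to 772 in KI, with 11 of 12 lower. Markers of several other tissues were lower in KI as well, namely 9 of 10 for skeletal muscle (median log2 fold change -1.47, 8504 to 41135 CPM in WT and 4684 to 9968 in KI), 6 of 7 for endothelium (-0.92, 172 to 381 and 104 to 133 CPM), 5 of 7 for adipocytes (-0.94, 1428 to 2782 and 1018 to 1297 CPM) and 5 of 8 for fibroblasts (-0.69, 6172 to 13907 and 3415 to 10226 CPM). Of the 7 T cell markers tested, 0 passed (median -0.0083). Of 7 suprabasal keratinocyte markers tested, 1 was higher and 1 lower, and of 7 basal ones 0 were higher and 2 lower. None of these markers was at 0 in all libraries. WT1 and WT3 also had the highest muscle scores, 10.75 and 11.55 against 8.43 to 10.31 in the other 8 libraries, and the highest fibroblast, adipocyte and endothelial scores. Y-linked genes had 3349 to 4262 counts in KI2 to KI5 and at most 1 in KI1 and the 5 WT libraries. *Xist* ran the other way, with 4 to 15 counts in KI2 to KI5 and 14829 to 28087 in KI1 and the WT libraries. The labels give no sex, but these counts are those of male mice in KI2 to KI5 and of female mice otherwise. KI1 was thus the only KI library to share that state with WT, and sex and genotype cannot be told apart in full. In whole skin, fewer cells of a type and less RNA per cell cannot be told apart.

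*Zfp36*, the targeted gene, had 2051, 2496, 1824, 2377 and 2011 normalized counts in WT1 to WT5 and 5781, 5202, 5820.0, 6134 and 4196 in KI1 to KI5. Every KI library lay above every WT library, and the log2 fold change was 1.33 ± 0.12 (SE; n = 5 per group), or 2.52-fold (adjusted p = 0.00195, from the quasi-likelihood test of edgeR, adjusted by Benjamini-Hochberg over 15543 genes, as for every adjusted p below). A normalized count here is a count scaled by trimmed mean of M values (TMM) to the mean library size.

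Across the decay genes, small differences toward KI prevailed. Of the 44, 17 passed an adjusted p of 0.05 with edgeR and all 17 were higher in KI, by 11.4% to 39.6% (log2 0.16 to 0.48). This was 38.6% of the members, against 34.3% of all genes tested in either direction, 15.3% higher and 19.1% lower. No member passed as lower in this edgeR fit, though *Zfp36l2* did under some other edgeR settings. At an unadjusted p under 0.05 there were 24 members, of which *Zfp36l2* was lower. DESeq2 called 20 higher and 1 lower, when 37.4% of all genes passed. With limma-voom 17 were higher and 0 lower, when 34.2% of all genes passed. The log2 fold change was above 0 in 40 of 44 members (90.9%, against 50.9% of all genes), and its median was 0.17 against 0.0076 over all genes. No member passed with a fold change over 2, which 8.31% of all genes did. The 95% interval of the fold change stayed within 1.5-fold in either direction for 39 members and within 2-fold for all 44. It stayed within 1.5-fold for 53.8% of all genes, which were not matched to the members for count level. Leaving out KI3, KI2 or WT1 left 7, 9 or 10 of the 17, when 22.4%, 21.3% and 22.1% of all genes passed. Leaving out KI1 left 10 of the 17 and added *Zfp36l2* as lower, when 25.9% of all genes passed. Leaving out KI4 or KI5 left 11 of the 17 (of 14 and 12 that passed), when 29.2% and 29.9% of all genes passed. Leaving out any of the other libraries left 13 to 16, when 26.7% to 34.3% of all genes passed.

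**Figure D1:**
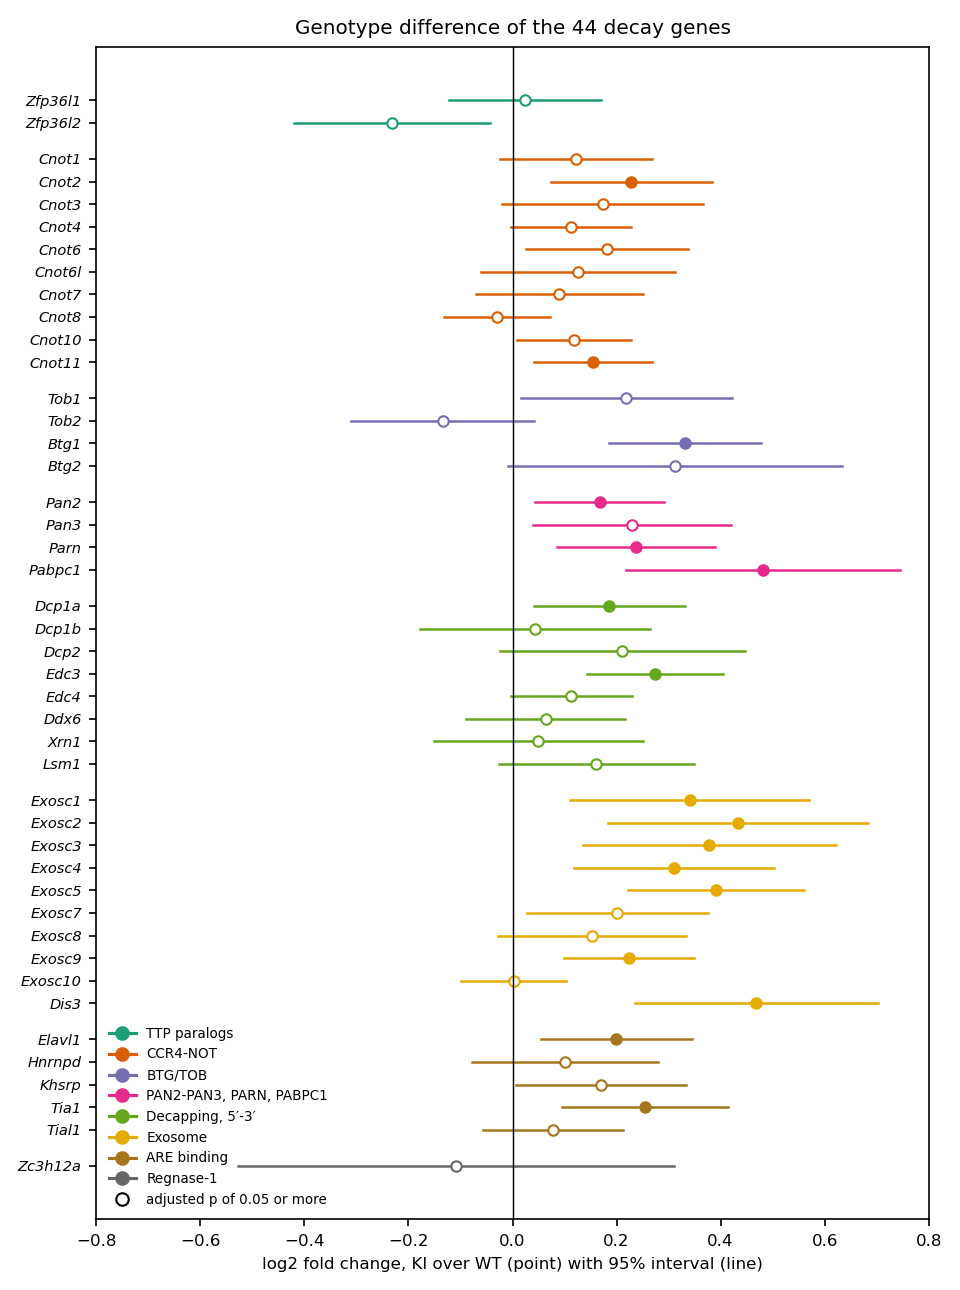
Log2 fold change of KI over WT (x axis) for each of the 44 decay genes (y axis, grouped by role), as the edgeR estimate (point) with its 95% interval (line). Filled points are the 17 genes with an adjusted p under 0.05, all to the right of 0, and open points are the other 27. No estimate exceeds 0.48 in size.

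The members also varied less between mice than genes at large, in a comparison not matched for count level. Their median coefficient of variation was 8.18% in WT and 7.76% in KI, against 13.8% and 11.5% over all genes tested. The wider list of decay genes described below had similar values, 8.73% and 7.19%. Mean normalized counts ran from 346 to 21277, and the lowest raw count of any member in any library was 228. All 5 KI libraries lay above all 5 WT libraries in 15 members, 13 of them among the 17 that passed, and below them in 0 members. Over all genes tested, the corresponding shares were 11.2% above and 11.9% below.

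*Zfp36l1*, located at chr12:80107754-80113013 on the minus strand of GRCm38 (mm10), had 4102, 4609, 3963, 4459 and 4260.1 normalized counts in WT1 to WT5 and 4425, 4591, 4651, 4102 and 3988 in KI1 to KI5. The groups overlapped almost entirely, with a log2 fold change of 0.024 ± 0.066 (95% interval -0.12 to 0.17; adjusted p = 0.794), and its sign changed under 5 other settings. Of its exon bases in GENCODE M21, the annotation used for all overlaps below, 55.9% coincide with the opposite-strand gene *Gm26669*. That gene has no row in the count table, and the strand setting of the counting is not given in the sources used here. *Zfp36l2* (chr17:84183931-84187947, minus strand) had 3175, 3291, 3237, 3091 and 2797 normalized counts in WT and 3012, 2563, 2441, 2961 and 2294 in KI, so KI2, KI3 and KI5 lay below all WT libraries while KI1 and KI4 lay within their range. Its log2 fold change of -0.23 ± 0.085 (95% interval -0.42 to -0.044) did not pass (adjusted p = 0.0561) but passed under 6 of 22 other settings. These included DESeq2 (adjusted p = 0.0418) and edgeR with upper-quartile scaling (adjusted p = 0.0312). The make-up of the family differed between genotypes. Per kilobase of exon, *Zfp36* made up 34.4% ± 2.0 (SD, n = 5) of the summed transcripts of the 3 genes in WT and 58.0% ± 2.6 in KI. The share of *Zfp36l1* was 40.6% in WT and 27.8% in KI, and that of *Zfp36l2* was 25.0% and 14.2%. The summed level was 3536 ± 258 normalized counts per kilobase in WT and 5284 ± 546 in KI, with the length of the knockin transcript not corrected for its deletion.

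**Figure D2:**
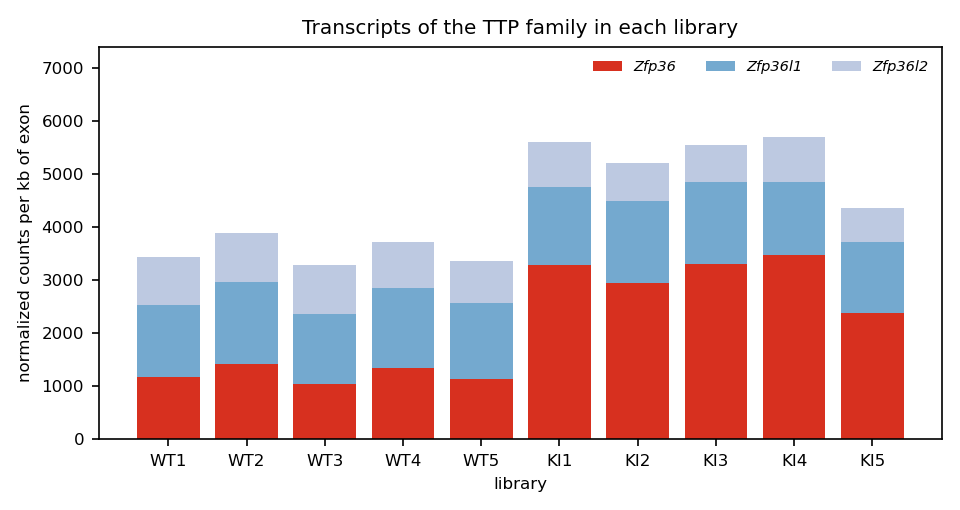
Normalized counts per kilobase of exon (y axis) of *Zfp36*, *Zfp36l1* and *Zfp36l2*, stacked for each of the 10 libraries (x axis). The *Zfp36* segment takes 31.5% to 36.4% of the bar in WT libraries and 54.5% to 61.1% in KI libraries.

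*Zc3h12a* encodes Regnase-1, a CCCH endonuclease that cleaves stem-loops in inflammatory mRNAs. It had 1683, 2265, 2459, 2004 and 2086 normalized counts in WT and 1479, 1645, 1585, 3007 and 2028 in KI. KI4 was the highest of all 10 libraries and KI1 the lowest, and the coefficient of variation in KI, 32.2%, exceeded that of every other member. The log2 fold change was -0.11 ± 0.19 (adjusted p = 0.673), with an interval of -0.53 to 0.31.

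In the CCR4-NOT complex, 2 of 10 genes rose, none fell and 8 did not pass, with a median log2 fold change of 0.12. Of all genes tested, 15.3% rose and 19.1% fell. *Cnot1*, the scaffold that TTP contacts, had 5623, 6019, 5336, 6049 and 5698 normalized counts in WT and 6472, 6858, 6098, 5747 and 6093 in KI. The ranges overlapped and the log2 fold change of 0.12 ± 0.066 did not pass (adjusted p = 0.165). *Cnot2*, which encodes a structural subunit and had the highest level per length of the 10, had 2549, 2921, 2301, 2797 and 2798 normalized counts in WT and 3147, 2957, 3091, 3334 and 3132 in KI. All KI libraries exceeded all WT libraries, the closest being KI2 and WT2, and the log2 fold change was 0.23 ± 0.07 (adjusted p = 0.0305). *Cnot11*, an accessory subunit, had 819.7, 876, 839.5, 881 and 902 normalized counts in WT and 943, 923, 1011, 984 and 948 in KI, again without overlap, for a log2 fold change of 0.16 ± 0.051 (adjusted p = 0.0391). The catalytic subunits *Cnot6*, *Cnot6l*, *Cnot7* and *Cnot8* had log2 fold changes of 0.18, 0.13, 0.09 and -0.03, none of which passed. *Cnot6* and *Cnot4* nevertheless had every KI library above every WT library, with adjusted p of 0.0681 and 0.114. Such a separation was seen in 4 of the 10 genes and in 11.2% of all genes tested. The module subunits *Cnot3* and *Cnot10* had log2 fold changes of 0.17 and 0.12 (adjusted p = 0.141 and 0.0847), with overlapping groups. *Cnot8* was among the least variable members, with 1306 to 1419 normalized counts in WT and 1268 to 1358 in KI.

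BTG and TOB proteins bind the CAF1 deadenylases (*Cnot7*, *Cnot8*) and promote deadenylation. Of the 4 BTG/TOB genes 1 rose, against 15.3% of all genes tested. *Btg1* (chr10:96617006-96622809, plus strand) had 4390.3, 5037, 4248, 4931 and 4965 normalized counts in WT and 5596, 6141, 6156, 5803 and 5972 in KI. The lowest KI library, KI1, lay above the highest WT library, WT2, and the log2 fold change was 0.33 ± 0.066 (adjusted p = 0.00808). *Tob1*, the member of this group with the highest level per length, had 2381, 2968, 2755, 3092 and 2927 normalized counts in WT and 3421, 3316, 3728, 3220.4 and 2749 in KI. KI5 lay inside the WT range and the other 4 KI libraries above it, and the log2 fold change of 0.22 ± 0.092 did not pass (adjusted p = 0.086). *Tob2* had a log2 fold change of -0.13 (adjusted p = 0.205). The log2 ratio of *Tob1* to *Tob2* per length was 1.26 ± 0.17 (SD) in WT and 1.61 ± 0.19 in KI, with ranges of 1.03 to 1.39 and 1.42 to 1.92. Of 8 paralog ratios it was the only 1 whose groups did not overlap. The others were *Zfp36l1* to *Zfp36l2*, *Cnot6* to *Cnot6l*, *Cnot7* to *Cnot8*, *Dcp1a* to *Dcp1b*, *Btg1* to *Btg2*, *Tia1* to *Tial1* and *Pan2* to *Pan3*. Among single genes tested, every KI library lay above every WT library in 11.2% and below in 11.9%. Ratios of other gene pairs were not examined. *Btg2* was more variable, with 2072 to 3176 normalized counts in WT and 2563 to 3776 in KI (log2 fold change 0.31 ± 0.15, adjusted p = 0.114).

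PAN2-PAN3 trims long poly(A) tails ahead of CCR4-NOT, PARN is a separate poly(A) ribonuclease, and PABPC1 is the cytoplasmic protein that coats the tail. Of these 4 genes, 3 rose, against 15.3% of all genes tested. *Pabpc1* (chr15:36595661-36609668, minus strand) had 15925, 19179.8, 14469, 19362 and 19869.7 normalized counts in WT and 22276, 25653, 29453, 24851 and 21729.8 in KI. It had both the highest level and the largest fold change of the 44, at 6298 ± 855 (SD) normalized counts per kilobase in WT and 8792 ± 1095 in KI. No KI library fell within the WT range, and the log2 fold change was 0.48 ± 0.12 (adjusted p = 0.0149). Some of its reads may be shared, as 9.94% of the 50-base words of its GENCODE M21 transcripts occur in those of other genes. The exons of these transcripts cover 6540 bases, against a counted length of 2820 bases. With the hair score as a covariate, its log2 fold change was 0.21 and did not pass. *Pan2* had 2119, 2279, 2038, 2332 and 2258 normalized counts in WT and 2360.4, 2657, 2379.6, 2475 and 2511 in KI, a narrow gap separating WT4 from KI1, with a log2 fold change of 0.17 ± 0.056 (adjusted p = 0.0415). *Parn* had 1036, 1047, 933, 1054 and 976 normalized counts in WT and 1196, 1201, 1188, 1040.1 and 1324 in KI. Here KI4 lay within the WT range and the other 4 KI libraries above it (log2 fold change 0.24 ± 0.069, adjusted p = 0.0248). *Pan3* had a log2 fold change of 0.23, close to that of *Parn*, but with a larger error of 0.086 (adjusted p = 0.0607).

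Among decapping and 5′-3′ decay genes, 2 of 8 rose, *Dcp1a* and *Edc3*, against 15.3% of all genes tested. The decapping enzyme *Dcp2* did not pass, though its log2 fold change of 0.21 exceeded the 0.19 of *Dcp1a*. *Dcp1a*, the activating partner of the decapping enzyme, had 1121, 1259, 1139.7, 1400.5 and 1221 normalized counts in WT and 1429, 1419.5, 1319.9, 1406 and 1414 in KI. KI3 lay within the WT range and the other KI libraries just above WT4, and the log2 fold change of 0.19 ± 0.066 passed narrowly (adjusted p = 0.049). *Edc3*, an enhancer of decapping at chr9:57708540-57752499 on the plus strand, had 972, 1074, 949, 1033 and 1031 normalized counts in WT and 1219, 1351, 1155, 1179 and 1214 in KI. The groups were separate, with a log2 fold change of 0.27 ± 0.059 (adjusted p = 0.00965). Of the 5804 *Edc3* exon bases in GENCODE M21, 22.1% coincide with the opposite-strand gene *Clk3*. The counted *Edc3* length was 3342 bases, so the share among counted bases can differ. *Clk3* was itself higher in KI (log2 fold change 0.91, adjusted p = 0.00715), and the part of *Clk3* reads in the *Edc3* counts was not tested. *Ddx6*, the helicase of P bodies and the gene with the highest level per length in this group, had 6407, 7721, 6644, 7188 and 7058 normalized counts in WT and 7905, 7422, 7328, 7003 and 6939 in KI. The ranges overlapped widely (log2 fold change 0.064 ± 0.069, adjusted p = 0.486). The catalytic subunit *Dcp2* and the exonuclease *Xrn1* had log2 fold changes of 0.21 (95% interval -0.025 to 0.45) and 0.049 (-0.15 to 0.25), and neither passed. *Dcp1b*, *Edc4* and *Lsm1* had 0.044, 0.11 and 0.16, none passing.

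Of the role groups, the RNA exosome had the largest number of changed genes. Of 10 exosome genes, 7 rose and none fell, with a median log2 fold change of 0.33. In 6 of the 10 every KI library exceeded every WT library. Over all genes tested, 15.3% rose, 19.1% fell and 11.2% had every KI library above every WT library. The exosome core is a ring of RNase PH-like proteins (*Exosc4*, *Exosc5*, *Exosc7*, *Exosc8*, *Exosc9*) under a cap of RNA-binding subunits (*Exosc1*, *Exosc2*, *Exosc3*), to which the nucleases DIS3 and EXOSC10 attach. *Dis3*, the processive nuclease, had 843, 855, 705, 625 and 920.3 normalized counts in WT and 1113, 1107, 1202, 969 and 1072 in KI. WT4 was the lowest library, no KI library fell within the WT range, and the log2 fold change was 0.47 ± 0.11 (adjusted p = 0.0113). The other nuclease, *Exosc10*, had 1807 to 2012 normalized counts in WT and 1836 to 1962 in KI. Its log2 fold change was 0.002 ± 0.046, with an interval of -0.099 to 0.10 that lay wholly below that of *Dis3* (0.23 to 0.70).

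All 3 cap genes rose. *Exosc2* had 965, 814, 624, 879 and 936 normalized counts in WT and 1037, 1282, 1159.6, 1063 and 1155 in KI, with WT3 far below the rest and WT1 the closest to KI1. Its log2 fold change was 0.43 ± 0.11 (adjusted p = 0.0178). *Exosc3* had 445, 468, 328, 472 and 491 normalized counts in WT and 601, 573, 635, 531 and 526 in KI, again with WT3 low and no overlap, for a log2 fold change of 0.38 ± 0.11 (adjusted p = 0.0257). *Exosc1* had 534, 590.5, 427, 625 and 581 normalized counts in WT and 614, 697, 752, 685 and 746 in KI. Only KI1 lay within the WT range, below WT4, and the log2 fold change was 0.34 ± 0.10 (adjusted p = 0.03).

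Of the 5 ring genes, 3 rose. *Exosc5* (chr7:25659164-25671368, plus strand), with the smallest adjusted p of the 44, had 526, 469, 438, 505 and 496 normalized counts in WT and 595, 691, 646, 682 and 580.2 in KI. The lowest KI library, KI5, was above the highest WT library, WT1, and the log2 fold change was 0.39 ± 0.076 (adjusted p = 0.0076). *Exosc4* had 525, 543, 445, 499 and 544 normalized counts in WT and 699.9, 596, 656, 673 and 546 in KI. KI5 exceeded WT5 by about 2 normalized counts, so that the groups only just separated, and the log2 fold change was 0.31 ± 0.087 (adjusted p = 0.0221). *Exosc9* had 804, 805, 724, 822 and 764 normalized counts in WT and 871, 912, 982, 901 and 912 in KI, without overlap, for a log2 fold change of 0.22 ± 0.057 (adjusted p = 0.0161). *Exosc7*, the exosome gene with the highest level per length, had 698, 754, 704, 741 and 878 normalized counts in WT and 821, 812, 910.3, 844 and 956 in KI. WT5 lay among the KI libraries, and the log2 fold change of 0.20 ± 0.078 did not pass (adjusted p = 0.0676), nor did that of *Exosc8* (0.15, adjusted p = 0.163). Exons of opposite-strand genes coincide with 19.8% of *Exosc4* (*Oplah*), 12.4% of *Exosc2* (*Gm13427*) and 10.8% of *Exosc9* (*Ccna2*), against 5.66% or less of the other exosome genes. These are shares of GENCODE M21 exons, which are longer than those counted, with 4709 against 1617 bases for *Exosc9*. *Oplah* had a log2 fold change of 0.50 (adjusted p = 0.0848) and *Ccna2* one of 0.40 (adjusted p = 0.046), and their part in the exosome counts was not tested. With the hair score as a covariate, the 7 exosome genes that rose had log2 fold changes from 0.090 (*Exosc1*) to 0.38 (*Dis3*), and none passed.

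**Figure D3:**
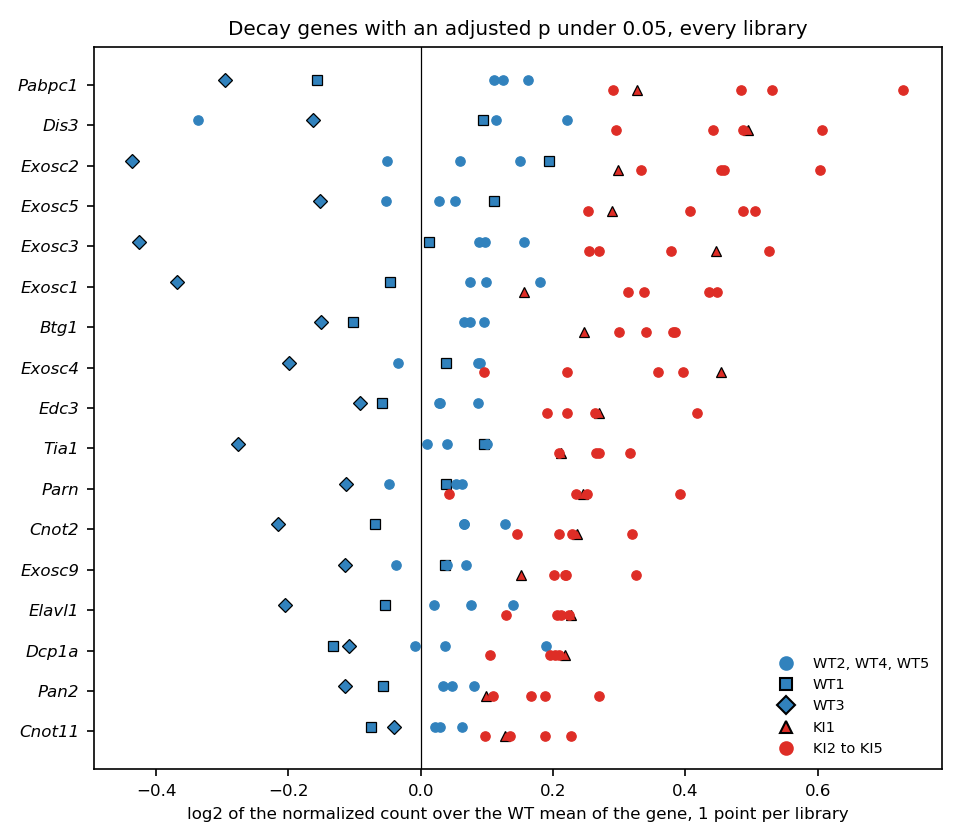
Log2 of the normalized count over the WT mean of the gene (x axis), with 1 point per library, for the 17 decay genes with an adjusted p under 0.05 (y axis, by size of the fold change). WT3 (diamond) is the lowest WT library in 14 of the 17. WT1 is drawn as a square and KI1 as a triangle.

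Of the 5 ARE-binding proteins, 2 rose, against 15.3% of all genes tested. *Elavl1* (HuR, chr8:4285382-4325413, minus strand) had 1702, 1792, 1533, 1948 and 1863 normalized counts in WT and 2068, 2064, 2038, 2048 and 1933 in KI. KI5 lay just below WT4 and the other 4 KI libraries above every WT library, and the log2 fold change was 0.20 ± 0.066 (adjusted p = 0.0384). *Tia1*, a translational repressor at chr6:86404219-86433405 on the plus strand, had 1469.9, 1413, 1136, 1473 and 1384 normalized counts in WT and 1592, 1653, 1713, 1589 and 1658 in KI. WT3 was the lowest library, the groups were separate, and the log2 fold change was 0.25 ± 0.072 (adjusted p = 0.0231). *Khsrp*, a decay-promoting protein and the one with the highest level per length here, had 2698, 2705, 2515, 3105 and 2983 normalized counts in WT and 3189, 3426, 3279, 3054 and 2813 in KI. The groups overlapped, and the log2 fold change of 0.17 ± 0.074 did not pass (adjusted p = 0.0952). With the hair score as a covariate, the log2 fold changes of *Elavl1* and *Tia1* were 0.045 and 0.10 and did not pass. *Hnrnpd* and *Tial1* had log2 fold changes of 0.10 and 0.078 (adjusted p = 0.346 and 0.328).

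Several of these mRNAs carry AU-rich elements themselves. The pentamer ATTTA and the heptamer TATTTAT, which contains it, were counted with overlaps on the transcript strand in the annotated 3′UTR of each gene (GENCODE M21, GRCm38). For the TTP paralogs and the 2 ARE-binding proteins that rose, the 30-base window with the most pentamers is shown 5′ to 3′ as DNA, with each ATTTA in capitals.
*Elavl1*, chr8:4285778-4285807, minus strand: attATTTATTTATTTATTTAtttttATTTA
*Tia1*, chr6:86430474-86430503, plus strand: aatgtATTTATTTAaaagattcattttttt
*Zfp36l1*, chr12:80107804-80107833, minus strand: aATTTATTTAaaagaaaaaaaaaacttttt
*Zfp36l2*, chr17:84184923-84184952, minus strand: aatatgaaaaactATTTAacttATTTAtta

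The *Elavl1* window holds 5 pentamers in 30 bases, the most of the 35 members searched for such a window. *Dcp2*, with 18 pentamers in 7240 bases, was not among those searched. The whole *Elavl1* 3′UTR of 4218 bases holds 17 pentamers and 8 heptamers. *Tia1* had 8 pentamers in 3038 bases, *Zfp36l1* 9 in 1835 and *Zfp36l2* 5 in 1822, while *Cnot6l* had 28 in 6847. At least 1 pentamer was present in 36 of 44 members (81.8%), against 66.2% of the 14408 tested genes with an annotated 3′UTR, and at least 1 heptamer in 16 members (36.4%), against 27.8%. The median 3′UTR length was 1020 bases in the members and 991.5 bases in all. Of the exosome genes, 9 of 10 had at most 1 pentamer and 5 had 0, in 3′UTRs of 87 to 2176 bases. Per kilobase of 3′UTR, *Exosc7* had 7.94 pentamers, the highest of the members, from 1 pentamer in 126 bases, and *Exosc1*, *Dis3* and *Exosc2* had 2.4, 2.3 and 1.28, against a median of 1.2 over all genes. Members without a pentamer (8, of which 5 rose) had a median log2 fold change of 0.20, and those with one (36, of which 12 rose) had 0.17. A match of these letters describes the sequence and does not show that a protein binds there.

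Levels within each group differed far more than the genotypes did. Per kilobase in WT, *Pabpc1* stood at 6298, ahead of *Zfp36l1* at 1434 ± 87.5, *Tob1* at 1236 ± 121 and *Ddx6* at 1155 ± 83.9 normalized counts per kilobase, and neighbours in this order after *Pabpc1* lay within their SDs of each other. At the low end were *Xrn1* (135 ± 11.5), *Dcp2* (121 ± 8.46), *Cnot4* (121 ± 2.4) and *Dcp1b* (103 ± 10.7), of which *Dcp2* and *Cnot4* did not differ beyond their spread. Of the deadenylase pairs, *Cnot6* was 2.05 times *Cnot6l* and *Cnot7* was 0.665 times *Cnot8* in WT per length, and both ratios overlapped between genotypes. Exosome genes spanned from 212 ± 32.4 (*Dis3*) to 728 ± 70.2 (*Exosc7*) in WT, and from 294 ± 22.6 to 838 ± 59.9 in KI.

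**Figure D4:**
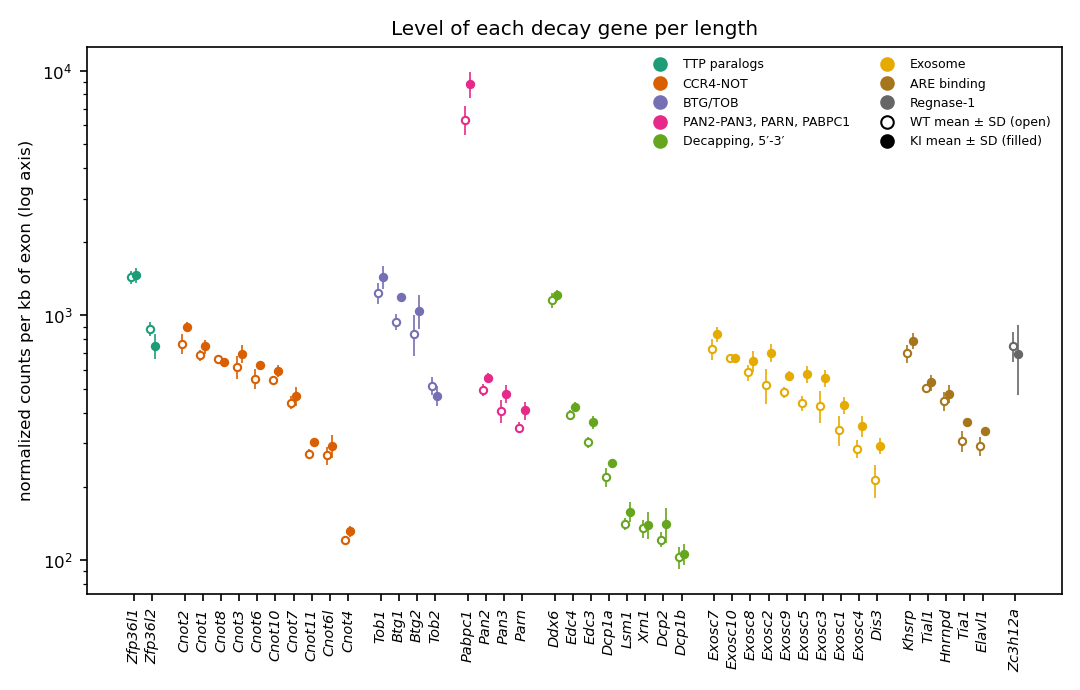
Normalized counts per kilobase of exon (y axis, log scale) of the 44 decay genes (x axis, ordered by level within each role), as mean ± SD over 5 WT (open) and 5 KI (filled) libraries. *Pabpc1* lies above all others at 6298 in WT, and the genotype difference of each gene is small beside the range between genes.

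A wider list of decay and ARE-binding genes, also drawn up by role, placed the members beside the rest of these pathways. Of 84 listed symbols, older names included, 80 were in the table and 76 were tested, of which 21 rose and 3 fell, with a median log2 fold change of 0.12. In the whole table of tested genes, 34.3% passed, 15.3% higher and 19.1% lower, so the total in this list was no larger than among genes at large. Among 16 further exosome genes and cofactors, 5 rose. The 4 with the smallest adjusted p were the 3′-5′ exonuclease *Eri1* (1255 ± 238 normalized counts in WT and 1989 ± 169 in KI, SD, log2 fold change 0.66, adjusted p = 0.00724), the ribosome rescue factor *Hbs1l* (0.51, adjusted p = 0.00966), and *Rbm7* and *Zcchc7*, which encode nuclear exosome adaptors (0.21 and 0.20). *Exosc6*, the remaining ring subunit and the fifth of these genes, had a log2 fold change of 0.44 (adjusted p = 0.0228). Among 13 tested genes around CCR4-NOT and the poly(A) tail, 4 rose, namely *Pabpn1*, the nuclear poly(A)-binding protein (0.24), the deadenylase-like *Noct* (0.58) and *Angel2* (0.15), and *Rqcd1*, the older symbol of the CCR4-NOT subunit *Cnot9* (0.26). Among 17 around decapping, 3 rose, namely *Lsm14a*, *Lsm2* and *Eif4enif1* (0.17, 0.32 and 0.21).

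The 30 further RNA-binding proteins included 9 that rose and 3 that fell, against 15.3% and 19.1% of all genes tested. *Rc3h1* (Roquin-1), which recognizes stem-loops and recruits CCR4-NOT, had 1645 ± 198 normalized counts in WT and 2403 ± 236 in KI, the largest rise of this list (log2 fold change 0.55 ± 0.095, adjusted p = 0.00586). *Ythdf2*, the m6A reader that directs mRNAs to decay, and *Fubp1* had log2 fold changes of 0.27 and 0.35 (adjusted p = 0.00989 and 0.0119). *Celf2* fell, from 1324 ± 337 to 801 ± 36.8 normalized counts (log2 fold change -0.73 ± 0.15, adjusted p = 0.00858), with every KI library below every WT library. The other 2 that fell were *Auh* (-0.31) and *Zc3h12c* (-0.33), the latter a paralog of Regnase-1 at a low level of 199 ± 18.4 normalized counts in WT.

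The differences of the decay genes moved with the libraries that stood apart. WT3, with the lowest hair score, was the lowest WT library in 29 of 44 members (65.9%, against 32.1% of all genes), and WT1 and WT3 were both below the other 3 WT libraries in 20 members, 10 of them among the 17 that rose, and in 23.8% of all genes. All 5 KI libraries had a higher hair score (8.61 to 9.82) than any WT library (2.43 to 7.85), so hair content and genotype cannot be told apart in full. With the hair score as a covariate in edgeR, 0 members passed, against 0.109% of all genes, 4 members had an unadjusted p under 0.05, and the smallest adjusted p was 0.217. All 17 log2 fold changes stayed above 0 and became smaller, with a median of 0.15 against 0.27, and over the 44 members the median was 0.078. Without WT1 and WT3, 6 members passed, namely *Btg1*, *Edc3*, *Exosc2*, *Exosc5*, *Dis3* and *Tia1*, against 15.9% of all genes, and the median over the 44 was 0.12. The 17 estimates were again all above 0 and all smaller, with a median of 0.22.

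The libraries with Y-linked counts were all KI. A term for them in edgeR left the comparison of genotypes to KI1 against the 5 WT libraries. Under it 0 members passed, as did 0% of all genes, 6 members had an unadjusted p under 0.05, the smallest adjusted p was 0.185, and the median log2 fold change over the members was 0.17, as without the term. The parts of hair content and of sex, as read from Y-linked and *Xist* counts, in these differences were otherwise not tested. Those of the macrophage, muscle, endothelial, adipocyte and fibroblast markers were not tested. *Btg1*, *Edc3*, *Exosc5* and *Dis3* passed under 20 of the 22 other settings, all but these 2 covariate fits, whereas *Cnot11* passed under 6 and *Pan2* and *Dcp1a* under 7.

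**Figure D5:**
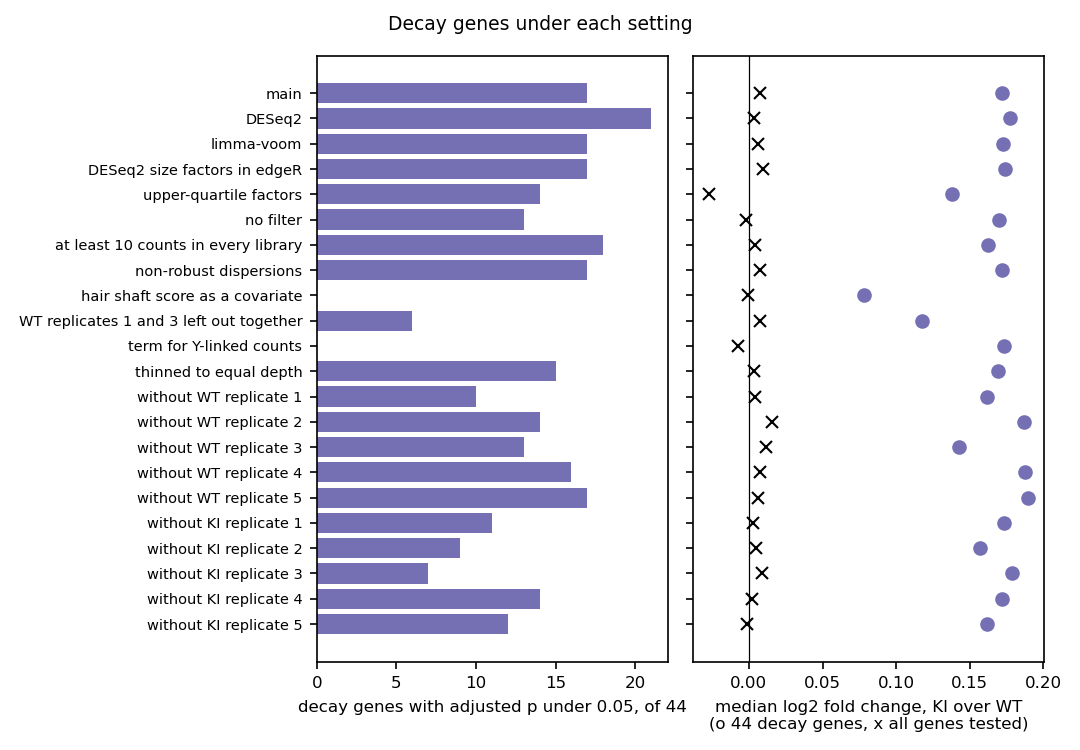
Left, number of the 44 decay genes with an adjusted p under 0.05 (x axis) under the settings of the analysis (y axis). The replicate block and the added limit on fold change are not drawn. Right, median log2 fold change of KI over WT for the 44 genes (circles) and for all genes tested (crosses), where the members' median is between 0.078 and 0.19 in each setting shown and that of all genes between -0.027 and 0.015.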

How the data were processed

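Skin RNA of 5 WT and 5 *Zfp36*ΔARE mice was sequenced as paired-end reads. The authors dropped low-quality reads (mean score below 20), aligned to mm10 with STAR 2.5.2b and counted fragments per gene with featureCounts (Subread 1.5.0-p1), and deposited raw counts, per the labels and methods. Strand and multi-mapping settings are not given in the sources used here, so counts of overlapping or near-identical genes are uncertain. The table held 24454 rows, 2 without a gene name (7.38e-05% of counts, left out). No 2 libraries were duplicates. The study's own test was DESeq2.

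Testing used edgeR 4.0.16 (R 4.3.3) with TMM factors and filterByExpr (15543 genes) and a quasi-likelihood test with robust dispersions and genotype as the only term, with Benjamini-Hochberg adjustment over all genes tested and a threshold of 0.05. Recovery of known changes was checked on simulated counts, with changes of 2-fold or more and no differences in hair or sex. The check therefore does not cover differences as small as those of the members. Intervals are 95% intervals of the fit. Alternatives were DESeq2 1.42.0, limma-voom 3.58.1, other scalings and filters, non-robust dispersions, a replicate block, a hair shaft score or a Y-linked term as covariates, counts thinned to 19595024, and leaving out libraries.

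The members, lists, alternatives and tests were chosen with earlier results of these data known. Named with values in every library were all members that passed, the CCCH members, *Cnot1*, *Elavl1* and the member of each role with the highest level per length. Up to 4 genes of each wider list, those with the smallest adjusted p, were named with means or fold changes only. *Exosc6*, *Auh*, *Zc3h12c*, *Clk3*, *Oplah* and *Ccna2* were named after their values were seen.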

Additional observations from a re-analysis of the deposited data

Results flagged for a closer look

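In each gene and genotype, the 5 libraries were examined for 1 that lay apart from the other 4, by the gap to its nearest neighbour as a share of the whole range (limit 0.71 for 5 libraries). Of 88 such groups 5 were set apart, against about 4.4 by chance alone.

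WT3 was the library set apart in 3 of them. It had 2666 normalized counts of *Cnot6*, against 3208 to 3414 in the other WT libraries, 328 of *Exosc3* against 445 to 491, and 1136 of *Tia1* against 1384 to 1473. WT3 also had the lowest hair score, 2.43. Without WT3, 13 rather than 17 members passed the edgeR test, when 26.7% rather than 34.3% of all genes passed. In KI, *Dcp1a* stood at 1320 normalized counts in KI3 against 1406 to 1429 in the others, and *Elavl1* at 1933 in KI5 against 2038 to 2068. The cause of these values was not tested.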

How the results depend on the processing

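The 17 members and 24 wider-list genes that passed became 4 and 9 with a replicate block (17.6% of all genes), 6 and 9 without WT1 and WT3 (15.9%), 0 and 0 with the hair score (0.109%), 0 and 0 with the Y-linked term (0%), and 0 and 0 when a fold change over 2 was also required (8.31%), against 34.3% of all genes without these changes. Leaving out each library in turn gave 7 to 17 members and 10 to 24 wider-list genes, the lowest without KI3 and KI2, respectively. Without WT1, KI2 and KI3 the wider list gave 12, 10 and 12. The other tools (DESeq2 and limma-voom), scalings and filters, non-robust dispersions and thinning gave 13 to 21 members, when 24% to 37.4% of all genes passed. Fits with fewer libraries or added terms have less information, and with the hair score or without WT1 and WT3 all 17 estimates also became smaller. The cause of these changes in number was not tested.

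The replicate block rests on numbers that did not pair the libraries, since same-numbered libraries had correlations of their deviations from the group means between -0.177 and 0.085. The 4 members passing with it were *Btg1*, *Edc3*, *Exosc5* and *Dis3*.

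Signs changed only in members that did not pass. With the hair score, log2 fold changes were -0.086 (*Zfp36l1*), 0.0055 (*Cnot8*), -0.023 (*Dcp1b*), -0.027 (*Ddx6*), -0.055 (*Exosc10*), -0.028 (*Hnrnpd*) and 0.013 (*Zc3h12a*). Without WT1 and WT3 they were -0.031 (*Zfp36l1*), 0.0037 (*Cnot8*), -0.0015 (*Ddx6*) and -0.025 (*Exosc10*). With the Y-linked term they were -0.019 (*Dcp1b*), -0.035 (*Exosc8*) and -0.0094 (*Exosc10*). Upper-quartile scaling gave -0.0090 (*Zfp36l1*) and -0.033 (*Exosc10*), at least 10 counts in every library gave -0.0073 (*Exosc10*), and thinning gave -0.024 (*Dcp1b*). With 1 library left out, *Zfp36l1* ranged from -0.0049 to 0.053, *Dcp1b* from -0.0089 to 0.096, *Xrn1* from -0.023 to 0.099 and *Exosc10* from -0.017 to 0.023.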
